A study of Homo sapiens with 6 samples.

Results

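The HLA class I antigen presentation genes described here were HLA-B, HLA-C, HLA-E, HLA-F, B2M, TAP1, TAP2, TAPBP and NLRC5. They were chosen by name, and all 9 of 9 were found among the 58735 rows of the gene table. Of these, 8 passed a minimum mean of 1 FPKM (fragments per kilobase of gene model, scaled to a depth for each library). In all, 12128 genes passed this minimum. The libraries came from MDA-MB-231, a human breast adenocarcinoma line, labelled WT for genotype. The comparison was of 3 control libraries at 0 Gy with 3 libraries, labelled RT, from cells given 10 Gy of gamma rays from a caesium source, with RNA taken 24 h after treatment and enriched for polyA transcripts. The sample descriptions carry the prefix SCR, which the labels do not explain. All 6 libraries came from this line in culture, and nothing in the labels says whether replicates were separate cultures. The p-values below therefore measure only the spread between these samples, which may be technical.

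Class I molecules show short peptides from inside the cell to CD8 T cells and natural killer cells. Peptides are cut by the proteasome, carried into the endoplasmic reticulum by the TAP1-TAP2 transporter, and loaded with the help of tapasin (TAPBP) onto a heavy chain paired with beta-2 microglobulin (B2M). Interferons raise most of these genes, and NLRC5 is the transactivator that acts at their promoters, where it joins factors bound to the X and Y boxes.

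The upstream sequences of 7 of the 9 members were found in the RefSeq promoter table (build GRCh38.p14), and HLA-E and NLRC5 had no entry. Those of HLA-B, HLA-C and B2M are shown because they hold the promoter elements of the class I enhanceosome in the same arrangement. Each window starts up to 250 bases before the RefSeq start and stops where an exon of a protein-coding gene begins, and capitals mark motif matches on either strand. The HLA-B window, chr6:31357189-31357429 on the minus strand, also lies in a pseudogene annotated on the opposite strand.
HLA-B: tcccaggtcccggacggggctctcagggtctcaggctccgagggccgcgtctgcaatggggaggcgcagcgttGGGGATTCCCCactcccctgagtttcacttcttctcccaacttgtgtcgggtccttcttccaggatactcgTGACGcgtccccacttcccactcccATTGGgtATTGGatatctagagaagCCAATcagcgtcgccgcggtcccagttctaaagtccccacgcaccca
The window of HLA-C was chr6:31272131-31272342 on the minus strand.
HLA-C: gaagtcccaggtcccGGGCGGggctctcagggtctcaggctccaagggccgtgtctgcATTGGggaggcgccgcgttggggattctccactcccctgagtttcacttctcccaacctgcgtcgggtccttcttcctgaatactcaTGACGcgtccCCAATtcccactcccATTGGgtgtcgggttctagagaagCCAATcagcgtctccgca
For B2M the window was chr15:44711317-44711486 on the plus strand.
B2M: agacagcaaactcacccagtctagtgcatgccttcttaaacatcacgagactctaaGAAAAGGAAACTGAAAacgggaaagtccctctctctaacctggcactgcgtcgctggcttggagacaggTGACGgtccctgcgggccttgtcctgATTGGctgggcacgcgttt

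The motifs searched were TGACG (the core of the X2 box), CCAAT (the Y box, bound by the NF-Y trimer), GAAANNGAAA (the core of the interferon-stimulated response element), GGGANNNCCC (a kB-like core) and GGGCGG (the GC box). TGACG stood 106 to 102 bases before the start of HLA-B, 105 to 101 before that of HLA-C and 75 to 71 before that of B2M. A reversed CCAAT followed in each, and the first bases of the pair were 25 bases apart in HLA-B and HLA-C and 26 apart in B2M. Of 27305 promoters of the same length, 23 (0.0842%) held the pair at either spacing, which was chosen after the spacing in these members was seen. TGACG alone was in 21.6% of promoters and in 4 of the 7 matched members, TAP2 being the other. CCAAT was in 33.0% of promoters and in 5 members, HLA-B, HLA-C, HLA-F, B2M and TAP1. The exact interferon core was in 3.07% of promoters and in 5 members, B2M, HLA-F, TAP1, TAP2 and TAPBP. In B2M, TAP1 and TAPBP it occurred as a pair of overlapping matches. The kB-like core was in 6.41% of promoters and, among the members, in HLA-B, where the palindrome matched on both strands. The GC box was in 42.2% of promoters and in 4 members, HLA-C, TAP1, TAP2 and TAPBP. Only these exact letters were searched, so a member with no match may still hold a variant of the element. A match is a description of letters and says nothing of binding in these cells.

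**Figure D1:**
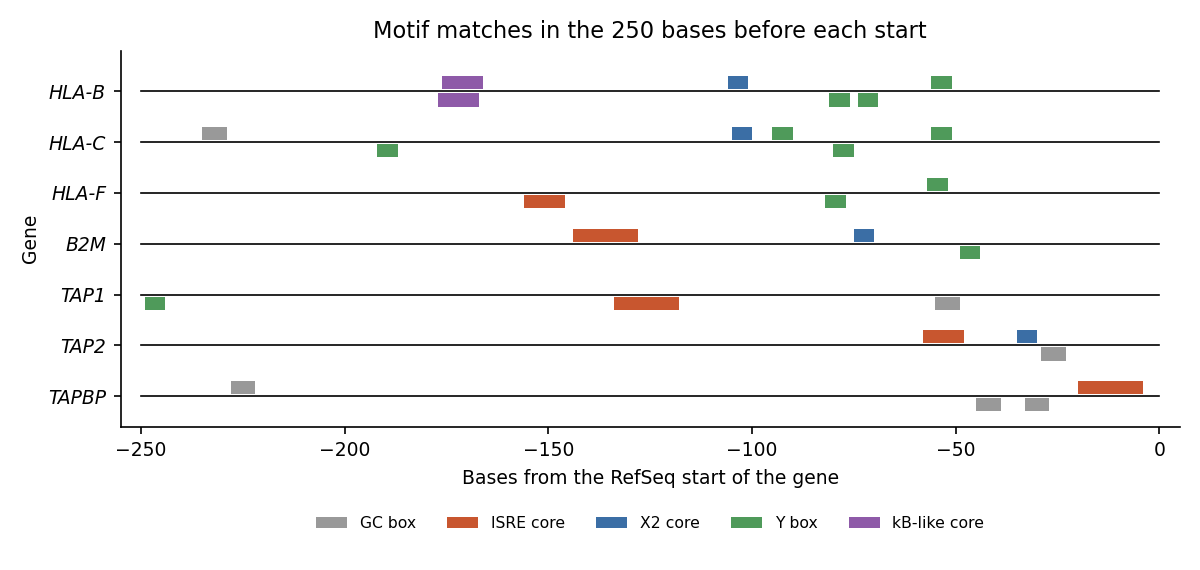
Motif matches in the 250 bases before the RefSeq start of 7 members, with distance from the start in bases on the x axis and 1 line per gene. Boxes above a line are matches in the direction of the gene and boxes below it are on the opposite strand. The X2 core and the reversed Y box stand 25 to 26 bases apart in HLA-B, HLA-C and B2M.

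No member passed the test across all genes between the doses. Of the 8 members tested, 0 passed an adjusted p of 0.05 (limma on log2(FPKM + 1), Benjamini-Hochberg over 12128 genes), while 35.6% of all tested genes did, 11.9% higher and 23.7% lower at 10 Gy. HLA-B and TAP1 were under 0.05 before adjustment, as were 46.7% of all tested genes. The further threshold of 1.3-fold applied only to genes already called, so 0 members could pass it, where 5.77% of all tested genes did. The members' log2 differences had a median of 0.06 and a median size of 0.066, where those of all tested genes had a median of -0.04 and a median size of 0.13. The 95% intervals of the 8 members together ran from -0.17 to 0.43 on the log2 scale, or from 0.89-fold to 1.34-fold, with the outer limits set by NLRC5 and HLA-B. In a bulk sample, a change in cell make-up and a change in RNA per cell cannot be told apart.

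**Figure D2:**
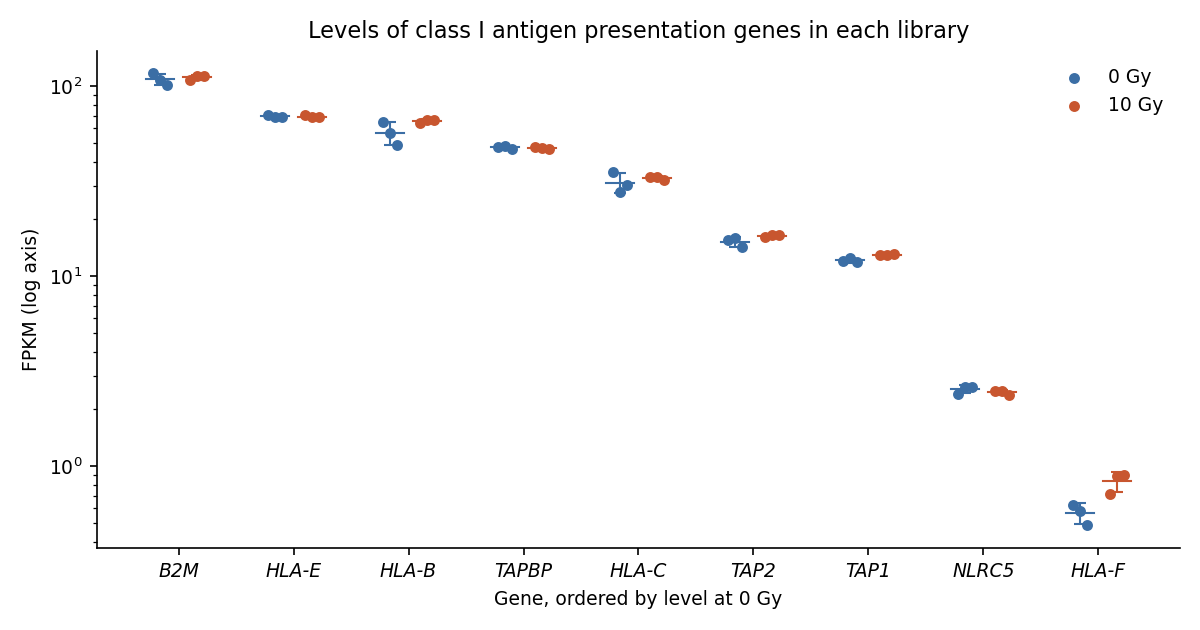
FPKM of the 9 members in each library on a log axis, ordered by level at 0 Gy. Points are libraries, short lines are means and bars are 1 SD with n = 3 per dose. B2M was highest at 109 and 111 FPKM and HLA-F lowest at 0.567 and 0.831 FPKM.

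HLA-B encodes a classical heavy chain and lies at chr6:31269491-31357188 on the minus strand. Its levels were 64.5, 56.8 and 48.8 FPKM at 0 Gy and 63.9, 66.7 and 66.2 FPKM at 10 Gy. Control library 1 lay inside the range of the irradiated libraries and the other 2 controls below it, so the groups overlapped. The means were 56.7 ± 7.87 and 65.6 ± 1.53 FPKM (SD, n = 3), and the log2 difference was 0.22 (SE 0.090, 95% interval 0.005 to 0.43, limma adjusted p = 0.101). This was the largest difference among the tested members, and it was called in 3 of 17 alternatives. One of these left out control library 1 (log2 difference 0.31, limma adjusted p = 0.0143), another tested protein-coding genes alone (0.22, limma adjusted p = 0.0424) and the last was TPM scaling, described further on.

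HLA-C, the other classical heavy chain in the set, lies beside it at chr6:31268749-31272130 on the minus strand. Values of 35.2, 27.8 and 30.2 FPKM at 0 Gy and 33.5, 33.3 and 32.1 FPKM at 10 Gy put control library 1 above and the other 2 controls below every irradiated library. The log2 difference was 0.091 (SE 0.077, 95% interval -0.091 to 0.27, limma adjusted p = 0.39). Without control library 1 it was 0.18 (limma adjusted p = 0.021). The gene models of HLA-B and HLA-C share 2640 bases on 1 strand and the genes are closely similar in sequence, so reads may be split between them and both values are uncertain. Summed over the pair, the levels were 99.7, 84.7 and 78.9 FPKM at 0 Gy and 97.4, 100 and 98.3 FPKM at 10 Gy. The sum thus kept the overlap, with control library 1 within the irradiated range.

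HLA-E, the non-classical chain read by the NKG2A receptor of natural killer cells, lies at chr6:30489467-30494205 on the plus strand. It was measured at 70.7, 69.0 and 68.7 FPKM at 0 Gy and 70.2, 68.8 and 68.7 FPKM at 10 Gy. Its log2 difference was -0.0043 (SE 0.028, limma adjusted p = 0.92), and the interval of -0.071 to 0.062 was the narrowest among the tested members. Its sign turned in 4 of 17 alternatives.

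HLA-F, a non-classical chain that can reach the surface without peptide, lies at chr6:29722775-29738528 on the plus strand. It was the lowest member, at 0.626, 0.584 and 0.489 FPKM at 0 Gy and 0.716, 0.883 and 0.894 FPKM at 10 Gy, from 39 to 58 and from 70 to 93 reads. Every irradiated library was above every control, with a ratio of means of 1.47. Its mean was under 1 FPKM, so it was not tested. With a minimum of 0.5 FPKM, chosen after its level was seen, its log2 difference on log2(FPKM + 1) was 0.22 (limma adjusted p = 0.084), and with no minimum the adjusted p was 0.181. An antisense gene, HLA-F-AS1, overlaps it by 11928 bases, and its values were 0.191, 0.343 and 0.177 FPKM at 0 Gy and 0.400, 0.406 and 0.420 FPKM at 10 Gy. Whether counting used strand is not given in the sources used here, and without strand the reads of HLA-F and its antisense gene cannot be told apart.

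B2M, the invariant light chain, lies at chr15:44711487-44718877 on the plus strand. It was measured at 117, 108 and 102 FPKM at 0 Gy and 108, 113 and 113 FPKM at 10 Gy, from at least 10092 reads in each library. All irradiated values fell within the range of the controls. The log2 difference was 0.029 (SE 0.052, 95% interval -0.093 to 0.15, limma adjusted p = 0.687).

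TAP1 lies at chr6:32845209-32853978 on the minus strand and encodes one chain of the peptide transporter. The controls gave 12.0, 12.5 and 11.9 FPKM and the irradiated libraries 13.0, 12.9 and 13.1 FPKM, with no overlap. Groups did not overlap for TAP1 and TAP2 among the 8 tested members, both being higher, while 51.9% of all tested genes had groups that did not overlap, 19.1% higher and 32.8% lower. The log2 difference of TAP1 was 0.092 (SE 0.033, 95% interval 0.015 to 0.17, limma adjusted p = 0.0661). It was called without control library 2 (0.11, limma adjusted p = 0.0452). TAP1 overlaps PSMB9 on the opposite strand by 8770 bases, and PSMB9 was at 5.93 to 7.94 FPKM at 0 Gy and 6.42 to 7.13 FPKM at 10 Gy.

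TAP2, the partner chain, lies at chr6:32821833-32838780 on the minus strand. Its levels of 15.6, 15.9 and 14.2 FPKM at 0 Gy were all below the 16.1, 16.4 and 16.4 FPKM at 10 Gy. The log2 difference was 0.094 (SE 0.045, 95% interval -0.012 to 0.20, limma adjusted p = 0.145). The ratio of TAP2 to TAP1 was 1.25 at both doses.

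TAPBP encodes tapasin, which holds empty heavy chains at the transporter, and lies at chr6:33299694-33314387 on the minus strand. It was at 47.7, 48.5 and 46.8 FPKM at 0 Gy and 48.0, 47.3 and 46.9 FPKM at 10 Gy, so the irradiated libraries lay within the controls. The log2 difference was -0.0077 (SE 0.029, 95% interval -0.075 to 0.060, limma adjusted p = 0.854). The ratio of TAPBP to TAP1 was 3.92 ± 0.056 at 0 Gy and 3.64 ± 0.060 at 10 Gy (SD, n = 3), with no overlap, given as a description.

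NLRC5, the transactivator, lies at chr16:56989485-57083531 on the plus strand. It was the lowest of the tested members, at 2.40, 2.62 and 2.62 FPKM at 0 Gy and 2.50, 2.48 and 2.36 FPKM at 10 Gy. The groups overlapped, and the log2 difference was -0.042 (SE 0.054, 95% interval -0.17 to 0.085, limma adjusted p = 0.575). Its level exceeded that of 22.9% of tested genes, while B2M exceeded 97.1% and HLA-B 93.5%.

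The order of the levels was the same at both doses: B2M, HLA-E, HLA-B, TAPBP, HLA-C, TAP2, TAP1, NLRC5 and HLA-F. Ranges of neighbours did not overlap at either dose, although at 0 Gy the lowest HLA-B value of 48.8 FPKM was close to the highest TAPBP value of 48.5 FPKM. FPKM are per length of gene model, which may differ from the length of the transcripts in these cells. The order is therefore one of FPKM and need not be that of transcript numbers. HLA-B and HLA-C also carry the doubt given above.

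The ratio of the highest to the lowest library was larger among the controls than among the irradiated libraries in all 9 members, as it was in 64.7% of all tested genes, although for HLA-F the SD was smaller among the controls. The highest control exceeded the lowest 1.32-fold for HLA-B, a spread reached by 11.4% of tested genes, and 1.04-fold at 10 Gy. For HLA-C these were 1.26-fold and 1.04-fold, and for B2M 1.15-fold and 1.04-fold. Over all tested genes the median was 1.11-fold at 0 Gy and 1.08-fold at 10 Gy. Counting error at the lowest read number was 1.94% for HLA-B, well under its control spread. Control library 1 was the highest control for 5 members, HLA-B, HLA-C, HLA-E, HLA-F and B2M, and control library 3 the lowest for 7 members, all but HLA-C and NLRC5. These counts were not taken over all tested genes, so the ordering may not be particular to the members. Among the controls, library 1 also had the largest sum of FPKM over all genes (278379.8) and library 3 the smallest (269611.1). Without control library 1 the differences of HLA-B and HLA-C were larger, as given above. Without control library 3 that of HLA-B was 0.11 (limma adjusted p = 0.187). Without control library 2 that of HLA-C was 0.017 (limma adjusted p = 0.858). Relative to B2M, HLA-B stood at 0.550, 0.526 and 0.477 at 0 Gy and at 0.589, 0.593 and 0.586 at 10 Gy, with no overlap, again as a description. Relative to HLA-E its mean was 0.815 at 0 Gy and 0.948 at 10 Gy, and relative to HLA-C 1.83 and 1.99. Both of these ratios overlapped between the doses.

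Directions depended on how libraries were scaled. The depth that the deposited FPKM were divided by was set against the reads recovered from them. It was 0.973, 0.983 and 0.991 times the recovered reads at 0 Gy and 1.04, 1.04 and 1.03 times at 10 Gy. The FPKM as deposited thus carried a factor that differed between the doses. How this depth was set was not tested, and no alternative divided by the recovered reads alone. The FPKM summed over all genes were 269611.1 to 278379.8 at 0 Gy and 246920.2 to 254918.4 at 10 Gy. Scaling each library to the same sum (TPM) moved the median of all genes by 0.11 on the log2 scale and turned the calls from 33.4% higher to 74.5% higher. Under TPM, 6 members were called higher, HLA-B, HLA-E, B2M, TAP1, TAP2 and TAPBP, beside 25.8% of all tested genes called higher, 8.83% called lower and 34.7% in all, and 0 members were lower. HLA-B then differed by 0.34 (SE 0.080, limma adjusted p = 0.0157) and TAP1 by 0.21 (SE 0.037, limma adjusted p = 0.00539). Taking off the median shift of all genes from FPKM to TPM gives back values near the FPKM result by construction. The differences were then 0.23 for HLA-B, 0.10 for HLA-C, 0.099 for TAP1 and 0.10 for TAP2. Those of B2M, HLA-E, TAPBP and NLRC5 were 0.044, 0.0099, 0.0057 and -0.062. The 6 members were called under TPM and not in the main fit of the FPKM as deposited, and which scaling suits these libraries was not tested. Upper quartile and median of ratios scaling called 0 members.

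**Figure D3:**
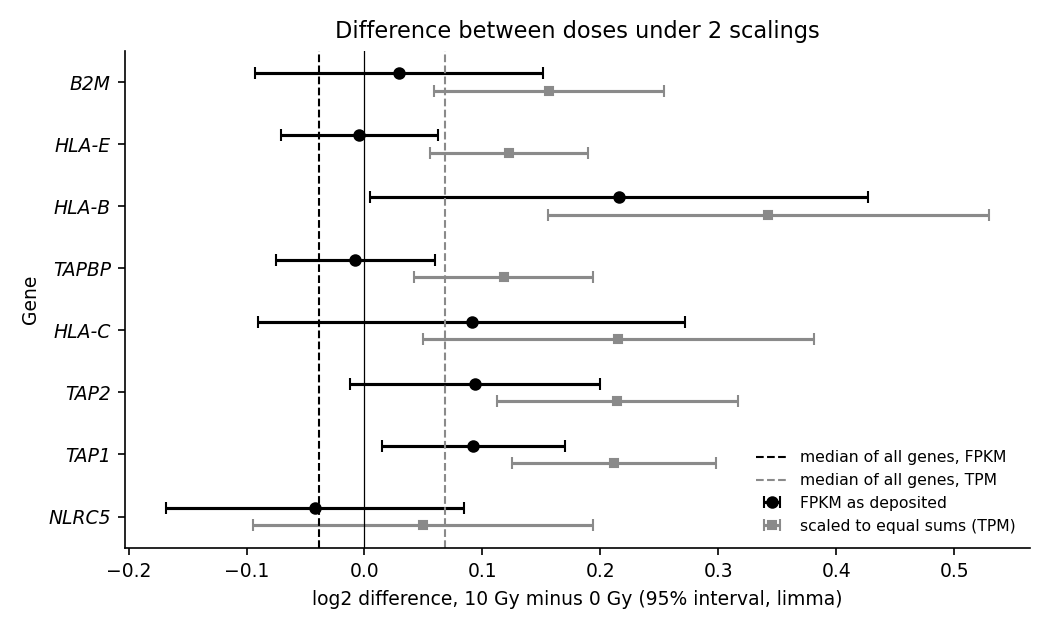
The log2 difference between 10 Gy and 0 Gy of the 8 tested members with its 95% interval, from the FPKM as deposited (black) and after scaling to equal sums (grey). Dashed lines mark the medians of all tested genes, which TPM scaling moved by 0.11, and every member moved to the right with it.

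Around the members, no immunoproteasome gene passed the test and the constitutive counterparts fell, whereas under TPM 3 of the 5 former genes were higher and the fall was not called. PSMB8, PSMB9 and PSMB10, the catalytic subunits that interferon brings into the proteasome, and the activator subunits PSME1 and PSME2 gave 0 calls of 5, with a median log2 difference of 0.012. Under TPM, PSME1, PSME2 and PSMB8 were called higher and the median was 0.13, and without control library 1 PSME1 was called. Constitutive PSMB5, PSMB6 and PSMB7 and the nuclear activator PSME3 were lower in 4 of 4, with a median of -0.21. Of all tested genes 35.6% were called, 11.9% higher and 23.7% lower. PSMB6 fell from 118 to 99.3 FPKM (log2 difference -0.25, SE 0.056, limma adjusted p = 0.0144), and PSMB5 fell from 120 to 103 FPKM (-0.22, SE 0.036, limma adjusted p = 0.00436). Under TPM 0 of these 4 passed, with a median of -0.079, and without irradiated library 2 the count was 1. As a description, PSMB8 over PSMB5 was 0.127 ± 0.0038 at 0 Gy and 0.149 ± 0.0023 at 10 Gy, and PSMB9 over PSMB6 was 0.0585 and 0.0675 (SD, n = 3), neither overlapping. PSMB10 over PSMB7 was 0.0344 at 0 Gy and 0.0388 at 10 Gy, and its groups overlapped.

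Of 11 genes of peptide loading and trimming, among them calreticulin, ERp57 and the ERAP aminopeptidases, 0 rose and 1 fell. For comparison, 11.9% of all tested genes were called higher and 23.7% lower. PRKCSH, the beta subunit of glucosidase II, fell from 77.0 to 67.0 FPKM (log2 difference -0.20, SE 0.028, limma adjusted p = 0.00273), and this call was lost under TPM, where 4 of the 11 were higher. Without control library 1 or 3, 2 of the 11 were lower. Of 8 tested class I-like proteins, 3 rose and 0 fell. FCGRT, the neonatal Fc receptor heavy chain, rose from 1.45 to 2.66 FPKM (0.58, SE 0.077, limma adjusted p = 0.00209), RAET1G, an NKG2D ligand, from 2.47 to 3.31 FPKM (0.31, limma adjusted p = 0.00918), and HFE, which pairs with B2M and regulates iron uptake, from 2.66 to 3.46 FPKM (0.29, limma adjusted p = 0.00924). All 3 stayed higher under TPM.

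Among 13 factors that bind or assemble at class I promoters, 0 rose and 6 fell, with a median of -0.11, against 2 higher and 2 lower under TPM. Over all tested genes 11.9% rose and 23.7% fell, against 25.8% higher and 8.83% lower under TPM. The 6 include the NFYA, NFYB and NFYC subunits of NF-Y, which binds the CCAAT motif shown above, and NFYB was called in 1 of the 6 fits that left out a library, the one without control library 1. NFYC fell from 7.14 to 5.74 FPKM (log2 difference -0.27, SE 0.035, limma adjusted p = 0.00188), NFYA from 15.9 to 13.1 FPKM (-0.26, limma adjusted p = 0.00518) and ATF1 from 20.5 to 16.9 FPKM (-0.26, limma adjusted p = 0.00392). CREB1 fell from 7.25 to 6.07 FPKM and NFKB1 from 17.8 to 15.3 FPKM, and NFYB, the remaining call, from 7.93 to 7.04 FPKM. Of these 6, NFYC and ATF1 were lower under TPM too. RFX5 was at 16.2 to 17.1 FPKM at 0 Gy and 16.6 to 17.1 FPKM at 10 Gy.

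In the interferon gamma signalling list, 1 of 6 tested genes rose and 0 fell, JAK1 going from 32.7 to 35.6 FPKM (log2 difference 0.12, SE 0.034, limma adjusted p = 0.0328). This call held in 1 of the 6 fits that left out a library. The shares over all tested genes were 11.9% higher and 23.7% lower, and 25.8% and 8.83% under TPM. Of 20 tested interferon-induced genes, 6 rose and 3 fell, with a median of 0.12, and under TPM 14 were higher and 1 lower. Without control library 1 the count higher was 10, and without irradiated library 1 or 2 the count lower was 1. IFI6 rose from 9.76 to 13.3 FPKM (0.41, limma adjusted p = 0.0128), GBP4 from 2.38 to 3.47 FPKM (0.40, limma adjusted p = 0.00243), STAT2 from 9.17 to 11.3 FPKM (0.28, limma adjusted p = 0.00485) and IFIT2 from 26.6 to 32.5 FPKM (0.28, limma adjusted p = 0.00635). CD274, which encodes PD-L1, fell from 6.60 to 4.91 FPKM (-0.36, limma adjusted p = 0.00229). Among PRC2 subunits, which deposit a repressive histone mark, 2 of 3 fell: EED from 9.44 to 7.64 FPKM (-0.27, limma adjusted p = 0.00534) and EZH2 from 31.8 to 26.2 FPKM (-0.27, limma adjusted p = 0.00117), under TPM too.

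**Figure D4:**
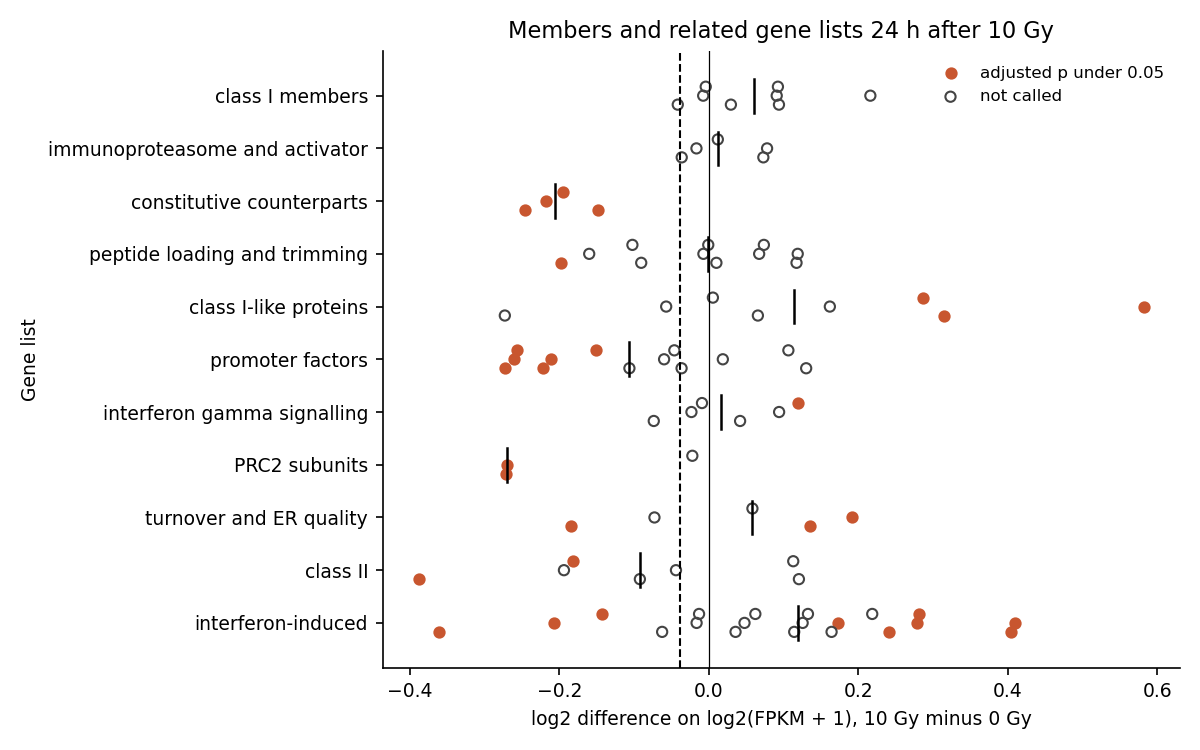
The log2 difference on log2(FPKM + 1) of each tested gene, by list, with filled points for an adjusted p under 0.05 and open points for the rest. Short black lines are list medians and the dashed line is the median of all tested genes at -0.04. The members have 0 filled points of 8 and the constitutive proteasome counterparts 4 of 4 on the left, while TPM scaling called 6 members higher and 0 of these counterparts.

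Leukocyte markers, checked because such cells carry class I genes of their own, were low. Of 11 markers 5 were at 0 in all 6 libraries, CD14 alone passed the minimum, and the summed level was 2.05 to 3.02 FPKM at 0 Gy and 2.77 to 3.83 FPKM at 10 Gy. Of the markers listed for this line, VIM was at 294 to 312 FPKM at 0 Gy and 247 to 255 FPKM at 10 Gy. KRT8 and KRT18 were at 90.0 to 117 FPKM in every library, and ESR1, PGR and CDH1 were at or near 0. Means at 0 Gy and 10 Gy were 7.08 and 7.67 FPKM for ERBB2 and 1.44 and 1.34 FPKM for EPCAM. VIM fell (log2 difference -0.26, SE 0.038, limma adjusted p = 0.00285), and CD44 fell from 78.6 to 73.0 FPKM (-0.11, limma adjusted p = 0.0439). Under TPM VIM was still lower, CD44 was not called, and KRT8 and ERBB2 were called higher. Recovered reads per library were 15643641 to 28861781, correlations between libraries of 1 dose were at least 0.992, and those between doses at most 0.989.

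The genes most like HLA-B over the 6 libraries, by Pearson r of log2(FPKM + 1), were PTPRA (0.992), ZNF627 (0.987) and SERF1B (0.987). For TAP1 the first were RASSF4 (0.997) and ZNF436 (0.995). Of 12120 genes compared, 176 reached 0.9 with HLA-B and 600 with TAP1. All points share the same 6 libraries and 1 difference in dose, so this is a description with no test.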

How the data were processed

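The deposited table gives FPKM per gene for 6 polyA RNA-seq libraries. Per the labels, the authors aligned reads with HISAT2 to GRCh38. The counting program and its strand setting are not given in the sources used here. All 58735 gene IDs had the same start and end in GENCODE 29. FPKM times length gave whole reads for 100.0% of values (tolerance 0.01), used for depth, read numbers and counting error. FPKM were tested on log2(FPKM + 1) with limma 3.58.1 in R 4.3.3 (eBayes with intensity trend, two-sided, a minimum mean of 1 FPKM for a gene to enter, Benjamini-Hochberg, adjusted p under 0.05), a pipeline tested on simulated data. Fold changes on this scale understate those of low genes. A fold of 1.3 was a further threshold. Groups came from the sample titles.

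Members and lists were chosen with earlier results of these data known. All 9 members are named with, for HLA-B and for TAP1, the 3 genes most like each in pattern, of which 1 is not reported here. From other lists up to 5 called genes with the largest log2 difference, and genes at or near 0, are named. The most abundant row was used where a symbol repeats. NFYB, KRT8, KRT18, ERBB2, EPCAM, RFX5 and the immunoproteasome genes were named outside this rule, after their values were seen. Alternatives covered the pseudocount, minimum, scaling, replicate block, eBayes settings, gene type and each library left out. Figures were drawn with matplotlib 3.10.9 in Python 3.11.15.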

Additional observations from a re-analysis of the deposited data

How the results depend on the processing

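Across all genes, 1443 were called higher and 2874 lower. TPM scaling gave 3138 higher and 1072 lower, with 6 members higher and, over the pathway lists (6 higher and 14 lower as reported, without the interferon-induced, class II, pseudogene and marker lists), 19 higher and 4 lower. With no minimum 1815 genes were called lower. A minimum of 5 FPKM gave 874 genes higher and 3 pathway genes higher. Testing protein-coding genes alone called 1 member, HLA-B. With each library left out in turn, genes called higher ranged from 846 to 1388, genes called lower from 1805 to 2621, and members called higher from 0 to 2. The lowest counts of genes, 846 and 1805, were without irradiated library 2, and without irradiated library 1 they were 876 and 1835. The count of 2 was without control library 1, and without control library 2 it was 1.

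The sign of some small differences turned, and the cause was not tested. HLA-E was 0.12 under TPM, 0.0017 under median of ratios scaling, 0.0079 without control library 1 and 0.0010 without irradiated library 3, ranging from -0.014 to 0.0079 with a library left out. B2M ranged from -0.016 (without control library 3) to 0.082. TAPBP was 0.12 under TPM and ranged from -0.021 to 0.0051 (without control library 2), and NLRC5 was 0.050 under TPM. HLA-B, HLA-C, TAP1 and TAP2 were higher in all 17 alternatives. HLA-F had the fewest reads of the members, 39 to 93, where counting error reached 16.0%.

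The labels do not say whether replicate numbers pair the libraries. Deviations from the dose means correlated at -0.04, -0.035 and -0.101 for equal numbers, which cannot decide whether cultures were paired. With the replicate block, 1137 genes were called higher and 2366 lower, and 0 members.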

Other observations

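Class II genes, which present peptides from outside the cell, gave 0 higher and 2 lower of 7 tested, with a median log2 difference of -0.092. Beside this, 11.9% of all tested genes were called higher and 23.7% lower. HLA-DRA fell from 34.1 to 25.7 FPKM (log2 difference -0.39, SE 0.080, limma adjusted p = 0.00977), with controls at 37.8, 35.0 and 29.6 FPKM and irradiated libraries at 25.5, 25.7 and 26 FPKM. CD74, the invariant chain, fell from 84.4 to 74.1 FPKM (-0.18, limma adjusted p = 0.0337). Under TPM HLA-DRA was still lower (-0.26, limma adjusted p = 0.0259) and CD74 was not called (-0.056, limma adjusted p = 0.399). Leaving out 1 library left 1 class II call in 5 of 6 fits.

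Of 5 tested genes of heavy chain turnover and quality control, 2 rose and 1 fell, beside 11.9% and 23.7% of all tested genes. SYVN1, a ubiquitin ligase of the endoplasmic reticulum, rose from 14.3 to 16.5 FPKM (log2 difference 0.19, limma adjusted p = 0.00341) and TMEM127 from 12.3 to 13.6 FPKM (0.14, limma adjusted p = 0.0244), a call lost without control library 2 and without irradiated library 1 or 2. WWP2 fell from 5.34 to 4.58 FPKM (-0.18, limma adjusted p = 0.0133), a call that TPM scaling did not give. Of 12 class I pseudogenes in the table, 2 were tested, 0 were called and 3 were at 0 in every library. HLA-G, a non-classical heavy chain of the placenta, was at 0 in all 6 libraries.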
